A study of Mus musculus with 6 samples.

Results

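The 9 members of the cadherin and catenin system *Cdh1*, *Cdh2*, *Cdh4*, *Cdh11*, *Cdh13*, *Ctnna1*, *Ctnnb1*, *Ctnnd1* and *Jup* were followed in osteoblasts (OBs) that had been sorted from ectopic bone induced with BMP-2. They were taken by gene symbol from the 23284 genes listed in each of 6 samples, and all 9 were found. The OBs came from *Col2.3*-ECFP mice, in which a *Col1a1* promoter fragment drives a cyan fluorescent protein in OBs, and all samples of both groups carried this transgene and a collagen sponge with 2.5 μg of rhBMP-2. Mice of 12 to 16 weeks of age were used. Bone was collected on day 10 (n = 3) or day 14 (n = 3) after implantation, and ECFP+ cells negative for CD45 and for a dead-cell dye were sorted. The day 10 tissue was digested with collagenase 1 time and the day 14 tissue 2 times, so the digestion and the day cannot be told apart. The labels call the samples biological replicates without giving the number of mice in each, so the p-values measure the spread between these samples only. The sample titles place replicates 1, 2 and 3 of the later group on day 14, while their free-text descriptions give day 14, day 15 and day 16. The question of the comparison was which genes change while OBs turn from a spindle to a cuboid shape.

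Cadherins are calcium-dependent adhesion proteins that bind the same kind of cadherin on a neighbouring cell. Inside the cell, the tail of a classical cadherin holds beta-catenin (*Ctnnb1*) or plakoglobin (*Jup*), these hold alpha-catenin (*Ctnna1*), which links to actin, and p120-catenin (*Ctnnd1*) binds the tail closer to the membrane and keeps the cadherin at the surface. Beta-catenin also acts in the nucleus as the coactivator of Wnt signaling, with TCF and LEF proteins. OBs are known to carry N-cadherin (*Cdh2*) and cadherin-11 (*Cdh11*), which was first named OB-cadherin.

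Levels are in FPKM, the number of fragments on a gene scaled by its exon length and by the mapped fragments of the sample, and they summed to between 431898 and 486940 per sample. The depth, estimated from the steps between low FPKM values, ran from 4559000 to 7788000 reads, which puts 3 reads on a stretch of 1000 bases at 0.385 to 0.658 FPKM. Of 9 OB markers all 9 were above 0 in every sample, and *Col1a1*, the main bone collagen, ran from 14151 to 34157 FPKM. Day 14 replicate 2 stood apart from the other samples of its day. Its summed FPKM of 7 chondrocyte markers was 2277, against 174 and 157 in day 14 replicates 1 and 3 and 640 to 1254 on day 10. Its OB marker *Sp7* was at 27.9 FPKM, against 9.79 and 4.09 in the other day 14 samples. Results that rest on this sample are therefore also given without it. In such sorted bulk samples, fewer cells of a type and less RNA per cell cannot be told apart.

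Measured per length in FPKM, *Cdh11* and *Ctnnb1* were the highest of the 9 genes and *Cdh1* the lowest. On day 10 the order of the mean levels was *Ctnnb1*, *Cdh11*, *Ctnna1*, *Cdh2*, *Ctnnd1*, *Cdh13*, *Jup*, *Cdh4* and *Cdh1*. The samples overlapped between *Ctnnb1* and *Cdh11*, between *Cdh2* and *Ctnnd1* and between *Cdh13* and *Jup*, and the other neighbours did not overlap. On day 14 *Cdh11* came first, 1.82-fold above *Ctnnb1* with no overlap of the samples, and *Ctnnd1* stood above *Cdh2*. On that day *Cdh13* overlapped with *Cdh2* and with *Jup*, *Ctnnd1* with *Cdh2* and *Cdh4* with *Cdh1*. Among all genes listed, ordered by the mean over the 6 samples, *Cdh11* ranked 374, *Ctnnb1* 515, *Ctnna1* 1610, *Ctnnd1* 2586 and *Cdh2* 2758. *Cdh13* ranked 7136, *Jup* 7521, *Cdh4* 11803 and *Cdh1* 15595.

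**Figure D1:**
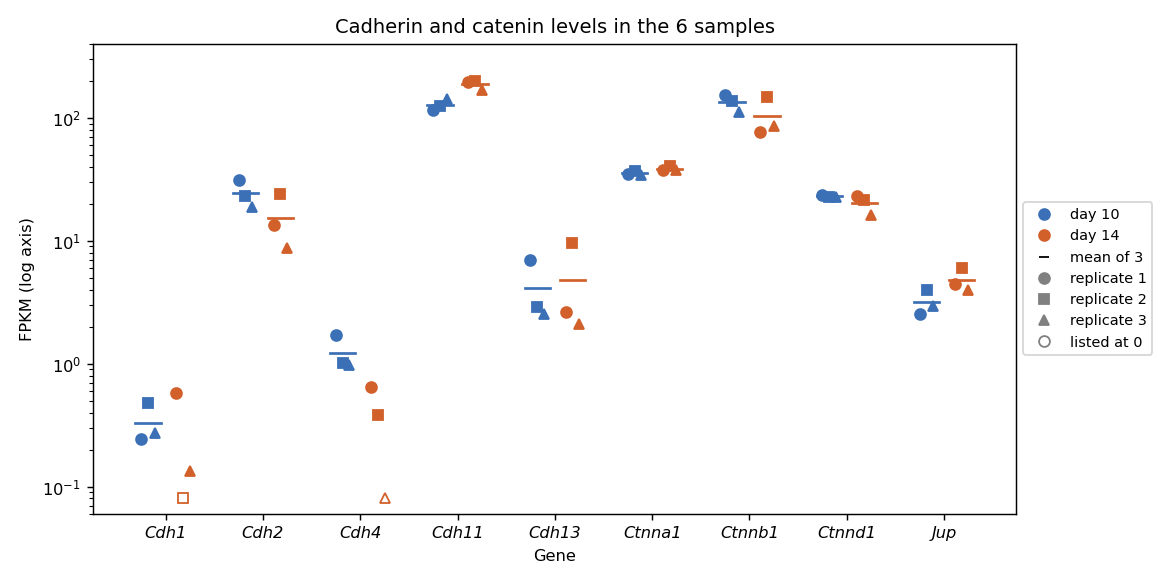
Levels of the 9 genes in FPKM on a log axis, with 1 point per sample (blue for day 10, orange for day 14, the shape giving the replicate) and a line at the mean of the 3 samples of a day. Open points at the bottom stand for samples listed at 0, and no mean line is drawn for those groups. *Cdh11* and *Ctnnb1* lie between 77.4 and 201 FPKM, while *Cdh1* stays below 0.58 FPKM.

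No member had an adjusted p under 0.05 between the days in limma over the 19526 genes tested, where 0.0154% of all genes did. At an unadjusted p under 0.05, 2 of the 9 were called, *Cdh11* as higher and *Cdh4* as lower on day 14, beside 10.0% of all genes tested (5.60% higher and 4.40% lower). The samples of the days did not overlap in 3 members, *Cdh11* and *Ctnna1* being higher and *Cdh4* lower on day 14, beside 14.3% of all genes tested (7.59% higher and 6.67% lower). The median log2 fold change of the 9 was −0.21, against −0.04 over all genes tested. Fold changes are those of FPKM + 0.1, the scale on which the test was run, and they understate the change of low genes.

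**Figure D2:**
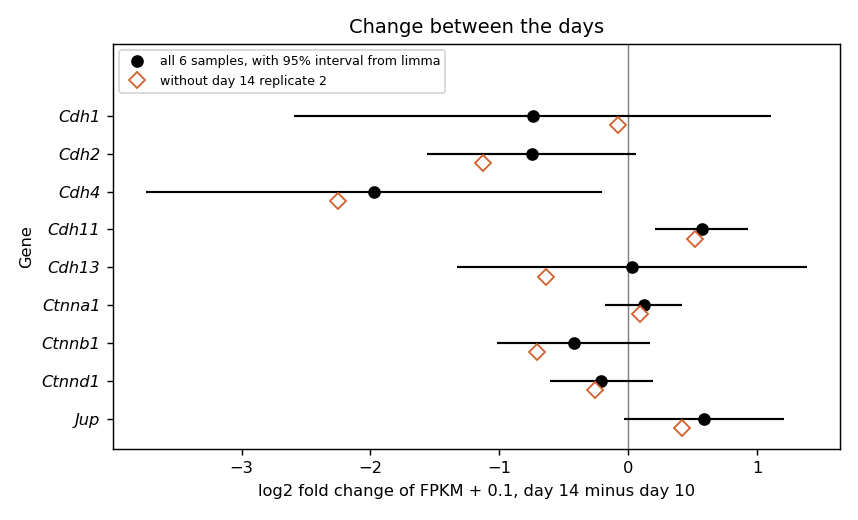
Log2 fold change of FPKM + 0.1, day 14 minus day 10, for the 9 genes, with all 6 samples (filled points, bars for the 95% interval from limma) and without day 14 replicate 2 (open diamonds). The intervals of *Cdh11* and *Cdh4* leave out 0, and the diamonds lie at lower values than the filled points for 8 of the 9 genes, *Cdh1* being the exception.

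*Cdh11*, on chromosome 8 from 102632095 to 102785642 (mm10, minus strand), encodes a type II cadherin of mesenchymal cells. It was at 116, 124 and 143 FPKM in day 10 replicates 1, 2 and 3 and at 197, 201 and 169 FPKM in day 14 replicates 1, 2 and 3. The days did not overlap, and day 14 replicate 2, which stood apart in its markers, was the highest. The mean went from 127 ± 13.7 to 189 ± 17.5 FPKM (SD, n = 3 each), and the log2 fold change was 0.57 (standard error 0.16, unadjusted p = 0.00652, adjusted p = 0.327 from limma). The summed FPKM of 5 fibroblast and tendon markers was 120.0 to 217 on day 10 and 189 to 432 on day 14, and that of 7 smooth muscle and pericyte markers 398 to 844 and 617 to 763, and their part in the *Cdh11* level was not tested. The difference in *Cdh11* was larger than the spread between replicates, with a 95% interval of 0.21 to 0.93, although it did not pass the adjusted threshold. Under each of 14 other settings the unadjusted p from limma stayed under 0.05, and the log2 fold change lay between 0.51 and 0.65.

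*Cdh2*, on chromosome 18 from 16588877 to 16809246 (minus strand), encodes N-cadherin, a type I cadherin. It measured 31.4, 23.1 and 18.8 FPKM in the day 10 samples against 13.5, 24.1 and 8.70 FPKM in the day 14 samples. Day 14 replicates 1 and 3 were below all day 10 samples, and replicate 2 lay among them. The means were 24.4 ± 6.44 and 15.4 ± 7.90 FPKM (SD, n = 3), and the log2 fold change was −0.75 (standard error 0.36, unadjusted p = 0.0664, adjusted p = 0.536 from limma). Without day 14 replicate 2 the log2 fold change was −1.13 (unadjusted p = 0.00371, adjusted p = 0.138 from limma), in a comparison where 13.0% of all genes had an unadjusted p under 0.05 and 0.386% an adjusted one. With 1 sample left out, the log2 fold change of *Cdh2* ran from −1.13 to −0.40. The −0.40 came without day 14 replicate 3 (unadjusted p = 0.231 from limma).

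*Cdh4*, on chromosome 2 from 179442431 to 179899373 (plus strand), encodes R-cadherin, a type I cadherin close to N-cadherin. It measured 1.70, 1.01 and 0.983 FPKM in the day 10 samples, against 0.641 and 0.384 FPKM in day 14 replicates 1 and 2, and it was listed at 0 in replicate 3. The days did not overlap. These levels rested on few reads, an estimated 34.0 to 51.3 on day 10 against 18.0, 14.1 and 0 on day 14, and 3 reads in day 14 replicate 3 would have given 0.0688 FPKM. Limma gave a log2 fold change of −1.97 with a standard error of 0.77 (unadjusted p = 0.0334, adjusted p = 0.452). It ranged from −3.13 with a pseudocount of 0.01 to −0.75 with a pseudocount of 1. Over 13 other settings the unadjusted p from limma lay between 0.0132 and 0.108, and it was under 0.05 in 7 of them. Without day 14 replicate 3, the sample listed at 0, the log2 fold change was −1.11 (unadjusted p = 0.0726, adjusted p = 0.757 from limma). The unadjusted p from limma was also over 0.05 without any 1 of the day 10 samples, between 0.0625 and 0.108.

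*Cdh13*, on chromosome 8 from 118283733 to 119324921 (plus strand), encodes T-cadherin, which has no cytoplasmic tail and is held in the membrane by a lipid anchor, so that it binds no catenins. It measured 6.96, 2.88 and 2.53 FPKM in the day 10 samples against 2.62, 9.63 and 2.11 FPKM in the day 14 samples. The highest sample of each day, day 10 replicate 1 and day 14 replicate 2, stood well above the other 4 samples. The log2 fold change of 0.03 had a 95% interval of −1.33 to 1.39 (adjusted p = 0.996 from limma), and it was −0.64 without day 14 replicate 2 (adjusted p = 0.647 from limma).

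*Cdh1*, on chromosome 8 from 106603351 to 106670246 (plus strand), encodes E-cadherin, the main cadherin of epithelia. It measured 0.243, 0.475 and 0.275 FPKM in the day 10 samples, against 0.572 and 0.135 FPKM in day 14 replicates 1 and 3, and it was listed at 0 in replicate 2. The samples of the days overlapped, and the estimated reads per sample were between 0 and 11. The log2 fold change was −0.74 with a 95% interval of −2.59 to 1.11 (adjusted p = 0.830 from limma), and it was −0.08 without day 14 replicate 2, the sample listed at 0. Of 7 epithelial markers, 4 had a mean under 0.1 FPKM, and their summed FPKM was 1.34 to 2.52 on day 10 and 0.816 to 2.09 on day 14. *Krt8* was listed at 0 in 5 of the 6 samples.

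Within a sample, *Cdh11* made up most of the summed FPKM of the 5 cadherin genes. Its share was 74.2%, 81.8% and 86.4% in the day 10 samples and 91.9%, 85.5% and 93.9% in the day 14 samples. The samples of the days overlapped, since day 14 replicate 2 was below day 10 replicate 3. The difference of 9.65 percentage points gave p = 0.2 in a two-sided exact permutation test (adjusted p = 0.2 over 3 ratios tested), and it was 12.1 points without day 14 replicate 2. The share of *Cdh2* was 20.1%, 15.3% and 11.4% on day 10 and 6.29%, 10.3% and 4.83% on day 14, with no overlap. *Cdh11* was thus 3.69-, 5.35- and 7.60-fold above *Cdh2* on day 10 and 14.6-, 8.34- and 19.4-fold above it on day 14. Neither the share of *Cdh2* nor its ratio to *Cdh11* was tested, and the shares came as close as 11.4% and 10.3%. The shares of *Cdh13* ran from 1.17% to 4.45%, those of *Cdh4* up to 1.08% and those of *Cdh1* up to 0.314%. Such shares do not depend on the scaling between samples.

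**Figure D3:**
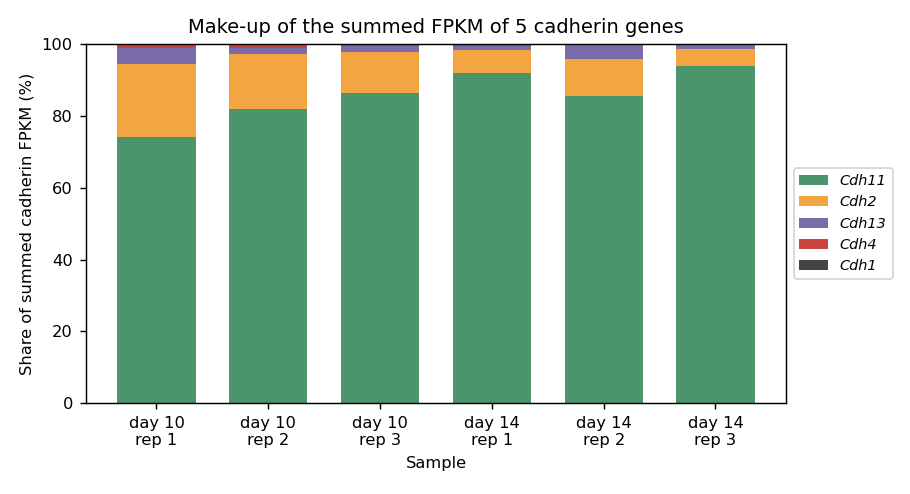
Share of each of 5 cadherin genes in their summed FPKM (%), with 1 bar per sample. The *Cdh11* part runs from 74.2% in day 10 replicate 1 to 93.9% in day 14 replicate 3, and the *Cdh2* part is smaller in each day 14 sample than in each day 10 sample.

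*Ctnnb1*, on chromosome 9 from 120929216 to 120960507 (plus strand), and *Jup*, on chromosome 11 from 100368958 to 100397763 (minus strand), encode the close relatives beta-catenin and plakoglobin, which take the same place on the cadherin tail. Plakoglobin is also a part of desmosomes. Their levels lay far apart in these OBs. The 250 bases before an annotated start of each are printed here (RefSeq, GRCm38.p6, the assembly of mm10), for description only. Each GC box, the letters GGGCGG on either strand, is in capitals. For *Ctnnb1* the stretch is chr9:120933150-120933399 on the plus strand, and for *Jup* it is chr11:100397791-100398040 on the minus strand. In GENCODE vM21 the *Ctnnb1* stretch overlaps no exon and lies in an intron of a longer *Ctnnb1* transcript that starts upstream, and the *Jup* stretch lies upstream of the gene.
*Ctnnb1*: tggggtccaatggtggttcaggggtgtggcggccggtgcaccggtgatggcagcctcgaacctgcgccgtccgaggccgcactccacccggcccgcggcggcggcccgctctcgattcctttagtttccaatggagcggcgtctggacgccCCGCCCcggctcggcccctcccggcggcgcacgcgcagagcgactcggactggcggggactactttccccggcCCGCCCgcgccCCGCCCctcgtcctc
*Jup*: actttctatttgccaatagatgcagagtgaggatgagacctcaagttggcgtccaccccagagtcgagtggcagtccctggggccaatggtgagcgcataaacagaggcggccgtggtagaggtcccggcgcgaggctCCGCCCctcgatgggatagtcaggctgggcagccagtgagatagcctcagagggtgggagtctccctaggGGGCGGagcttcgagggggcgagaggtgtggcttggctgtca
The *Ctnnb1* stretch was 74.8% G or C, with 35 CpG pairs and 3 GC boxes, and that of *Jup* was 62.0% G or C, with 13 CpG pairs and 2 GC boxes. The median over all 32851 stretches of this length in the table was 52.4% G or C and 6 CpG pairs, and 32.7% of them held a GC box on either strand. The letters TATAAA were in neither printed stretch on either strand, and 12.4% of all stretches held them. The stretch before a second annotated start of *Ctnnb1* was 74.4% G or C and held TATAAA. Of the 9 members, *Ctnnb1*, *Jup* and *Ctnnd1* were matched in the promoter table, and *Cdh1*, *Cdh2*, *Cdh4*, *Cdh11*, *Cdh13* and *Ctnna1* were not. The stretches of *Ctnnd1* were 66.8% and 40.0% G or C, each with 0 GC boxes. The part of these sequences in the levels was not tested.

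*Ctnnb1* was at 155, 138 and 112 FPKM in the day 10 samples and at 77.4, 149 and 86.1 FPKM in the day 14 samples. As for *Cdh2*, day 14 replicates 1 and 3 were below all day 10 samples and replicate 2 lay among them. Limma gave a log2 fold change of −0.42 with a standard error of 0.26 (unadjusted p = 0.139, adjusted p = 0.644), and without day 14 replicate 2 it was −0.71 (unadjusted p = 0.00627, adjusted p = 0.165 from limma). With 1 sample left out, the log2 fold change of *Ctnnb1* ran from −0.71 to −0.24. The −0.24 came without day 14 replicate 1 (unadjusted p = 0.405 from limma). *Jup* measured 2.55, 3.97 and 2.94 FPKM in the day 10 samples against 4.42, 5.96 and 3.95 FPKM in the day 14 samples. Its lowest day 14 sample was just below its highest day 10 sample, and the log2 fold change was 0.59 (standard error 0.27, 95% interval −0.03 to 1.21, adjusted p = 0.525 from limma). *Ctnnb1* was 61.0-, 34.6- and 38.0-fold above *Jup* on day 10 and 17.5-, 24.9- and 21.8-fold above it on day 14, without overlap. On the log2 scale the ratio of *Jup* to *Ctnnb1* went from −5.43 ± 0.44 to −4.41 ± 0.26 (SD, n = 3), a difference of 1.03 that was larger than the spread between replicates. The two-sided exact permutation test gave p = 0.1, below which 3 samples against 3 cannot go (adjusted p = 0.15 over the 3 ratios).

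*Ctnna1*, on chromosome 18 from 35118859 to 35254779 (plus strand), encodes alpha-E-catenin. It measured 35.2, 36.8 and 34.6 FPKM in the day 10 samples against 37.4, 40.7 and 37.9 FPKM in the day 14 samples. Among the 7 members with a mean of at least 1 FPKM it had the smallest spread over the 6 samples, and although the samples of the days did not overlap, the log2 fold change was 0.12 with a 95% interval of −0.18 to 0.42 (adjusted p = 0.828 from limma). *Ctnnd1*, on chromosome 2 from 84600071 to 84650765 (minus strand), encodes p120-catenin. It measured 23.7, 22.6 and 22.9 FPKM in the day 10 samples against 23.1, 21.4 and 16.1 FPKM in the day 14 samples. Only day 14 replicate 3 lay clearly lower, and the log2 fold change was −0.21 with a 95% interval of −0.61 to 0.19 (adjusted p = 0.764 from limma).

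Set against the cadherins, beta-catenin mRNA was lower in the day 14 samples than in the day 10 samples. *Ctnnb1* came to 0.994, 0.910 and 0.677 of the summed FPKM of the 5 cadherin genes in the day 10 samples and to 0.361, 0.631 and 0.478 of it in the day 14 samples. No day 14 sample reached the lowest day 10 sample, replicate 2 coming closest. On the log2 scale this ratio went from −0.24 ± 0.29 to −1.07 ± 0.40 (SD, n = 3), a difference of −0.83 with p = 0.1 in the same exact permutation test and 0.15 after adjustment over the 3 ratios. Without day 14 replicate 2 the difference was −1.03. The summed cadherin FPKM itself was 151 to 165 on day 10 and 180.0 to 236 on day 14, and most of it was *Cdh11*. The sum also holds *Cdh13*, whose protein binds no catenins.

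Across the 6 samples, the members differed in their patterns. The distance used was the root mean square difference between the log2(FPKM + 0.1) profiles of 2 genes, each centred on its own mean over the 6 samples. *Cdh2* lay 0.31 from *Ctnnb1* and 0.81 from *Cdh11*, and *Cdh11* lay 0.23 from *Jup*. On day 14 all 9 OB markers and *Cdh2* were highest in replicate 2 and lowest in replicate 3, while *Ctnnb1* was highest in replicate 2 and lowest in replicate 1. *Sp7*, a transcription factor needed for OB formation, was at 73.7, 51.1 and 40.1 FPKM on day 10. On that day *Sp7*, *Alpl* and *Ibsp* had the order of *Cdh2* and *Ctnnb1*, highest in replicate 1, while the other 6 OB markers were highest in replicate 2. *Alpl*, the alkaline phosphatase of mineralizing cells, measured 1129, 1055 and 809 FPKM in the day 10 samples against 273, 1300 and 186 FPKM in the day 14 samples. The summed FPKM of 9 OB markers was 43241 to 85752 on day 10 and 28589 to 63490 on day 14, the latter value being that of replicate 2. All 7 chondrocyte markers were in the files, and their sum also was highest in day 14 replicate 2, while that of 7 myeloid markers was lowest there, at 19.2 FPKM against 216 and 560 in replicates 1 and 3. The part of these markers in the levels of *Cdh2* and *Ctnnb1* was not tested.

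**Figure D4:**
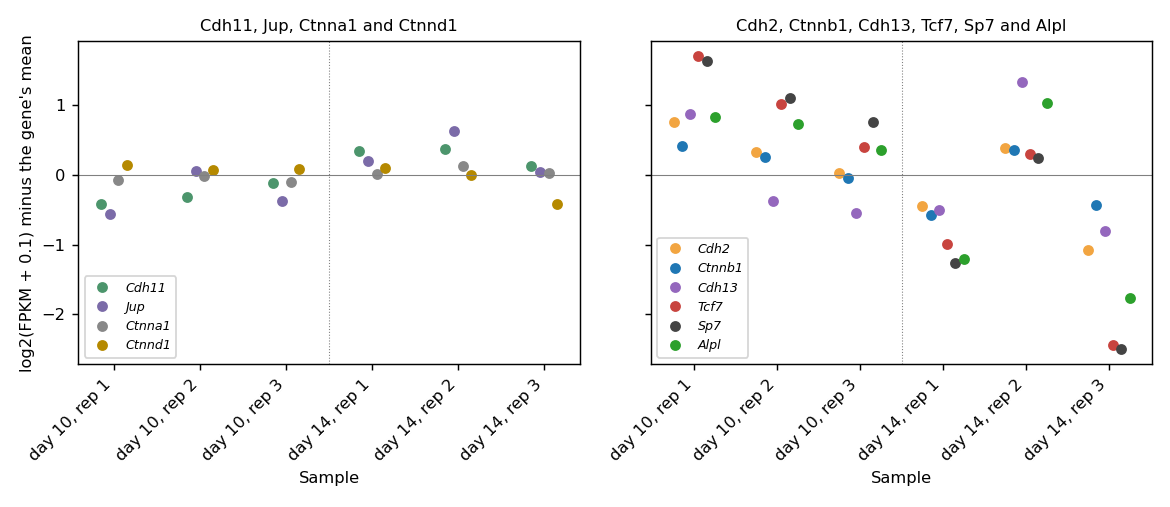
Level of each gene in each of the 6 samples, as log2(FPKM + 0.1) minus the mean of that gene over the samples. The left panel shows *Cdh11*, *Jup*, *Ctnna1* and *Ctnnd1*, and the right panel *Cdh2*, *Ctnnb1* and *Cdh13* with *Tcf7*, *Sp7* and *Alpl*. All 6 genes of the right panel and 3 of the 4 of the left panel, *Ctnnd1* being the exception, are highest among the day 14 samples in replicate 2.

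Among 11155 other genes with a mean of at least 1 FPKM, the 3 with the profile closest to that of *Cdh2* were *Traip*, *Nebl* and *Elmo1*, at distances of 0.10, 0.12 and 0.14. *Elmo1* measured 15.8, 12.8 and 8.53 FPKM in the day 10 samples against 6.56, 10.7 and 5.07 FPKM in the day 14 samples. The closest to *Cdh13* were *Ccnd1*, *Hist1h4h* and *Foxc1*, at 0.26, 0.26 and 0.27. *Ccnd1*, which encodes cyclin D1, measured 6.54, 3.95 and 3.58 FPKM in the day 10 samples against 3.35, 8.64 and 2.80 FPKM in the day 14 samples, so that the same 2 samples were the highest as for *Cdh13*. *Cdh2* and *Cdh13* were chosen for this because they had the largest spread over the samples among members with a mean of at least 1 FPKM. These distances over 6 samples describe likeness only.

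Genes around the members were described with 7 lists, and in none of them did a gene have an adjusted p under 0.05 from limma with all 6 samples. Of 18 other cadherins, all tested, 0 had an unadjusted p under 0.05 from limma, beside 10.0% of all genes tested. Only *Cdh3* and *Cdh15* reached a mean of 1 FPKM. *Cdh3*, P-cadherin, measured 1.42, 1.08 and 2.67 FPKM in the day 10 samples against 3.98, 1.34 and 2.67 FPKM in the day 14 samples, with overlap. *Cdh15*, M-cadherin, is known from muscle precursors, and it measured 6.89, 11.2 and 1.90 FPKM in the day 10 samples against 0.913, 4.99 and 0.268 FPKM in the day 14 samples. Limma gave a log2 fold change of −2.12 with a standard error of 0.95 (adjusted p = 0.510), and the days overlapped through day 14 replicate 2. Without day 14 replicate 2 its log2 fold change was −3.14 (unadjusted p = 0.00324, adjusted p = 0.133 from limma), and without day 14 replicate 3 it was −1.25. Of 6 skeletal muscle markers, *Cdh15* among them, the summed FPKM was 18.7 to 23.8 on day 10 and 11.6 to 14.2 on day 14, with no overlap. This sum holds *Cdh15* itself, so it is not separate from the *Cdh15* level. *Cdh15*, *Des* and *Acta1* each overlapped between the days. *Myog*, a defining factor of muscle cells, was listed at 0 in all 6 samples, *Myod1* was at most 0.248 FPKM and *Ckm* at most 0.169 FPKM, while *Des* was at 6.34 to 16.2 FPKM and *Acta1* at 0.275 to 8.33 FPKM. The part of these markers in the *Cdh15* level was not tested. *Cdh10* followed with means of 0.814 and 0.416 FPKM. *Cdh5*, VE-cadherin of endothelium and named after its values were seen, was at 0.0540 to 0.752 FPKM, and the summed FPKM of 7 endothelial markers was 1.86 to 3.79 on day 10 and 3.79 to 7.86 on day 14.

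Of 19 adherens junction partners, 18 were tested, 3 of them higher and 1 lower on day 14 at an unadjusted p under 0.05, beside 5.60% and 4.40% of all genes tested, with a median log2 fold change of 0.19. The highest were *Actn4*, *Lima1* and *Vcl*, which encode actin-binding proteins. *Lima1* measured 31.3, 32.0 and 53.6 FPKM in the day 10 samples against 63.6, 47.2 and 66.8 FPKM in the day 14 samples (log2 fold change 0.63, standard error 0.24, adjusted p = 0.438 from limma), with overlap. *Actn4* (log2 fold change 0.20) and *Vcl* (log2 fold change 0.55), which encodes vinculin, were not called. The other genes called as higher were *Actn1* and *Pvrl2*, now named *Nectin2*, both with overlapping days and named here after their values were seen. *Ajuba*, listed under its older symbol *Jub*, encodes a LIM protein of junctions. It was the gene called as lower, with 5.76, 5.18 and 5.80 FPKM on day 10 and 2.65, 5.16 and 3.0 FPKM on day 14 (log2 fold change −0.67, standard error 0.28, adjusted p = 0.479 from limma), and its days came close to overlapping in replicate 2 of both.

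Desmosome genes were low in these OBs. Of 14, 10 were tested, 0 had an unadjusted p under 0.05 from limma, and only *Pkp2*, a plakophilin, reached a mean of 1 FPKM, with means of 1.33 and 1.61 FPKM. The desmosomal cadherins *Dsg4* and *Dsg2* followed, and both were highest in day 14 replicate 1, at 1.40 and 1.15 FPKM. Of the protocadherin, Fat and Celsr genes, 20 were in the files and 18 were tested, with 1 called as higher and 1 as lower on day 14, beside 10.0% of all genes tested in either direction. *Pcdh18*, a protocadherin, measured 20.1, 18.3 and 12.8 FPKM in the day 10 samples against 7.89, 10.7 and 5.36 FPKM in the day 14 samples. The days did not overlap, and limma gave a log2 fold change of −1.12 with a standard error of 0.28 (unadjusted p = 0.00384, adjusted p = 0.309). *Pcdh20* was higher, with 0.771, 1.48 and 1.30 FPKM in the day 10 samples against 1.87, 2.48 and 2.95 FPKM in the day 14 samples, also without overlap (log2 fold change 1.00, standard error 0.37, adjusted p = 0.423 from limma). *Pcdh7* and *Fat1* had means of 10.0 to 11.0 FPKM on both days and were not called.

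Of 12 proteases that process cadherins or their precursors, all tested, 1 was called as higher and 1 as lower on day 14 at an unadjusted p under 0.05, where 5.60% and 4.40% of all genes tested were. *Adam9*, a membrane metalloprotease, measured 37.8, 43.1 and 52.2 FPKM in the day 10 samples against 67.7, 63.3 and 88.1 FPKM in the day 14 samples. The days did not overlap, and limma gave a log2 fold change of 0.72 with a standard error of 0.19 (unadjusted p = 0.00462, adjusted p = 0.314). *Pcsk6*, a proprotein convertase, measured 169, 120.0 and 60.1 FPKM in the day 10 samples against 25.1, 63.4 and 10.9 FPKM in the day 14 samples, with an overlap through day 14 replicate 2 (log2 fold change −2.04, standard error 0.60, adjusted p = 0.340 from limma). For *Pcsk6* the value was −2.68 without day 14 replicate 2 (adjusted p = 0.0639 from limma) and −1.42 without day 14 replicate 3 (adjusted p = 0.670 from limma). *Pcsk5* had means of 48.6 and 61.2 FPKM and was not called.

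The beta-catenin destruction complex had 10 tested genes, of which limma gave 0 an unadjusted p under 0.05, beside 10.0% of all genes tested. The highest were *Csnk1a1*, *Fbxw11* and *Axin1*, with log2 fold changes of 0.30, 0.20 and 0.19. Among 15 nuclear partners of beta-catenin and genes known as Wnt targets, 14 were tested, 0 were called as higher and 4 as lower on day 14, beside 4.40% of all genes tested, and the median log2 fold change was −0.19. *Tcf7*, a DNA-binding partner of beta-catenin, measured 46.0, 28.4 and 18.5 FPKM in the day 10 samples against 7.00, 17.3 and 2.51 FPKM in the day 14 samples (log2 fold change −2.08, standard error 0.62, adjusted p = 0.347 from limma). For *Tcf7* the value was −2.75 without day 14 replicate 2 (adjusted p = 0.0639 from limma) and −1.38 without day 14 replicate 3 (adjusted p = 0.643 from limma). *Notum*, a secreted enzyme that inactivates Wnt proteins, measured 22.0, 39.4 and 15.7 FPKM in the day 10 samples against 2.29, 11.0 and 1.87 FPKM in the day 14 samples. Limma gave a log2 fold change of −2.68 with a standard error of 0.63 (adjusted p = 0.305). For *Notum* the value was −3.46 without day 14 replicate 2 (adjusted p = 0.0197 from limma). In that comparison 0.386% of all genes tested had an adjusted p under 0.05. Without day 14 replicate 3 the value was −2.22 (adjusted p = 0.636 from limma). *Pygo2*, a cofactor of beta-catenin in transcription, was at 7.56 ± 0.936 and 5.17 ± 0.990 FPKM (SD, n = 3; adjusted p = 0.460 from limma). The days did not overlap in 4 genes of this list, *Tcf7*, *Notum*, *Pygo2* and *Rnf43*, all lower on day 14. Of all genes tested, 6.67% separated in this direction. *Rnf43*, with means under 1 FPKM and named after its values were seen, was the other gene called as lower. *Nkd2*, a Wnt antagonist of the same list, had a log2 fold change of 0.15 and was not called. *Lgr5* and *Ctnnbip1*, named after their values were seen, had log2 fold changes of 0.46 and 0.41 and were not called. On day 14 *Tcf7* and *Notum* were highest in replicate 2 and lowest in replicate 3, as the OB markers were. The part of the OB markers in the levels of *Tcf7* and *Notum* was not tested.

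**Figure D5:**
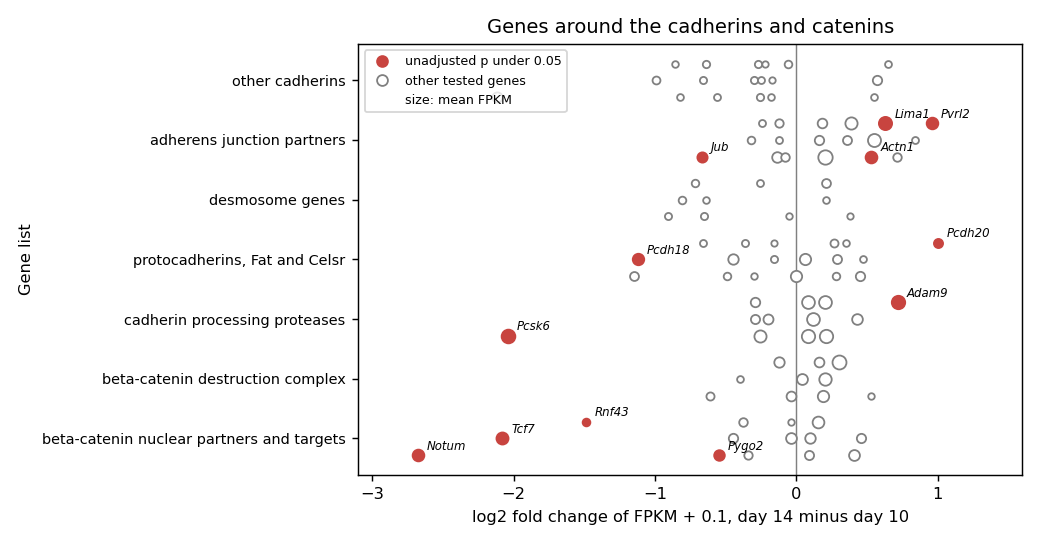
Log2 fold change of FPKM + 0.1, day 14 minus day 10, for the tested genes of 7 lists, with 1 point per gene, sized by its mean FPKM. Filled points, which are named, have an unadjusted p under 0.05 from limma. The 4 filled points among the nuclear partners and targets all lie below 0.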

How the data were processed

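RNA of sorted ECFP+ OBs was analysed in 3 samples per day. The authors aligned single-end reads of 75 bases against mm10 using TopHat2 2.0.13, Bowtie2 2.2.3 and SAMtools 0.1.19 and deposited FPKM values per gene from Cufflinks 2.2.1, with no further scaling stated. The gene annotation and the handling of reads mapping to several genes are not given in the sources used here. In 1 file, 25 gene symbols turned into dates were restored by position.

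Genes with a mean above 0.1 FPKM were compared on log2(FPKM + 0.1) with limma 3.58.1 (R 4.3.3, mean-variance trend, day as the only factor), with p-values adjusted by Benjamini-Hochberg over all 19526 tested genes. Ratios were compared with two-sided exact permutation tests. The fits were tested on simulated data. Depth was estimated from 1977 genes with 1 annotated transcript of 1500 to 8000 bases, using their values above 0 and up to 0.3 FPKM. These values numbered 423 to 719 per sample. At the depth chosen from them, 74.7% to 79.3% per sample came within 0.1 of a whole number of reads, which is no independent check. Reads per member were estimated from its longest coding transcript in GENCODE vM21. The 95% intervals given come from the limma fit, not from the estimated depth. The members and lists were chosen with earlier results of these data known. The genes named are the members, the 3 highest genes of each list, list genes with a mean of at least 1 FPKM, an unadjusted p under 0.05 and separated days, and the profiles closest to the 2 most variable members. Exceptions are stated where they are named.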

Additional observations from a re-analysis of the deposited data

How the results depend on the processing

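Of 124 values of the members' log2 fold changes under other settings, 121 kept their direction and their side of the adjusted threshold, and 3 reversed, all of them of *Cdh13*, whose value with 1 sample left out ran from −0.64 to 0.47. With 1 sample left out, direction also turned for *Dsg4* (−1.91 to 0.05), *Pkp2* (−0.15 to 0.56), *Pcdh7* (−0.26 to 0.23), *Fat1* (−0.22 to 0.12), *Pcsk5* (−0.21 to 0.62) and *Nkd2* (−0.24 to 0.48). The number of genes with an adjusted p under 0.05 from limma was 3, and it was 6 with an ordinary linear model and between 3 and 76 with 1 sample left out, the 76 (0.386% of the genes tested) coming without day 14 replicate 2. The number of members with an unadjusted p under 0.05 was 2, and it was 1 with a pseudocount of 0.01, 1 with the ordinary linear model and between 1 and 4 with 1 sample left out. It was 1 without day 10 replicate 1, day 10 replicate 3 or day 14 replicate 3. Without day 14 replicate 2 it was 4, in a comparison where 13.0% of all genes tested were called. Members with separated days numbered 3, and between 3 and 5 with 1 sample left out, 5 being reached without day 14 replicate 1 or replicate 2. Fewer samples separate more easily, and the share of all genes separated was not computed with 1 sample left out, so these counts have no background beside them. The ratios kept their direction whichever sample was left out, the *Cdh11* share differing by 6.36 to 12.4 points, *Ctnnb1* to cadherins by −1.03 to −0.63 and *Jup* to *Ctnnb1* by 0.78 to 1.18. The cause of these shifts was not tested. The replicate number was also fitted as a block. Same-numbered samples deviated from their day means with correlations of 0.058, −0.00584 and 0.0887 across genes, and the other pairs with −0.0978 to 0.0202. Whether same-numbered samples share more than a number cannot be told from these values. With the replicate block, 4 members had an unadjusted p under 0.05 from limma (*Cdh2*, *Cdh4*, *Cdh11* and *Jup*), and the share of all genes called so was not computed. With this block 2 genes in all had an adjusted p under 0.05 from limma. The ratios gave p = 0.25 in the exact test over the signs of the pairs, the smallest that 3 pairs allow. At this depth, *Cdh1* and *Cdh4* rest on too few reads to place their size of change closely.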

Other observations

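The genes with the profile closest to the other members were looked up after the values had been seen and are given as values only. *Tnfsf11*, which encodes the osteoclast factor RANKL, lay closest to *Jup*, at a root mean square difference of 0.08 on the log2 scale over 6 samples. It measured 15.3, 22.2 and 15.6 FPKM in the day 10 samples against 22.5, 33.0 and 23.7 FPKM in the day 14 samples. *Slc44a2* lay closest to *Cdh11*, also at 0.08, with 53.2, 54.7 and 66.5 FPKM on day 10 and 80.3, 82.1 and 73.9 FPKM on day 14. *Akirin1*, *Mars* and *Shmt2* lay closest to *Ctnnb1*, at 0.07, 0.07 and 0.08. *Shmt2*, an enzyme of mitochondrial serine and folate metabolism, measured 26.6, 23.0 and 21.7 FPKM in the day 10 samples against 13.0, 24.8 and 15.8 FPKM in the day 14 samples.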
